A study of Homo sapiens with 12 samples.

Results

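The genes described here are 30 named genes of cholesterol and fatty acid synthesis and of their control by sterols, of 19225 genes in the deposited tables. They were chosen by gene symbol and grouped by role: 7 of the mevalonate and isoprenoid steps, 3 of the squalene and lanosterol steps, 8 that turn lanosterol into cholesterol, 5 that control the SREBP transcription factors, 1 sterol carrier and 6 of fatty acid synthesis and desaturation. Earlier results of these data were known when they were chosen. All 30 were found and all 30 passed the filter on low counts, which kept 14026 genes. RNA sequencing was done on K562, an established human chronic myeloid leukaemia line that carries erythroid features and can be moved toward megakaryocytes in culture. The 12 libraries form 4 groups of 3. Cells with a negative control siRNA (siNC, genotype labelled WT) and cells with an siRNA against RHOB (siRHOB, labelled RHOB knockdown) were each kept for 3 days in growth medium (Ctl) or in megakaryocyte differentiation medium (MK). RHOB encodes a small GTPase, and the series asks what it does in megakaryocyte and erythroid differentiation. The sources used here do not give the contents of the MK medium.

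Cells build cholesterol from acetyl-CoA. The early enzymes make mevalonate and then the isoprenoid farnesyl diphosphate, the middle enzymes join it into squalene and close the rings to lanosterol, and the late enzymes trim lanosterol to cholesterol. When sterols in the endoplasmic reticulum membrane are low, SCAP escorts the SREBP precursors to the Golgi, where they are cut, and the released factor turns on most genes of the pathway. When sterols are high, the INSIG proteins hold SCAP back. SREBP-2 (gene SREBF2) acts mainly on sterol genes, and the SREBP-1c form of SREBF1 mainly on fatty acid genes. Differentiating megakaryocytes build a large internal membrane system for platelets, which is made of lipid.

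The 250 bases before the start of 5 of the genes are shown, chosen for their range of responses below among the 26 whose promoter was searched. In MSMO1, INSIG1 and STARD4 the change with the medium differed most between replicate 3 and the others. LSS fell most in MK medium, and SREBF2, the regulator itself, did not pass the test. SQLE, which rose most, was not among the 26. They are RefSeq sequences on GRCh38.p14, written 5′ to 3′ on the gene's own strand. Capitals mark the letters CCAAT on either strand (printed as ATTGG where on the other), the binding letters of NF-Y, a factor known to work with SREBPs, and in SREBF2 also the sterol response element core TCACNCCAC. The windows lie at chr4:165327419-165327668 (plus strand), chr7:155297628-155297877 (plus), chr5:111512536-111512785 (minus), chr21:46228775-46229024 (minus) and chr22:41832855-41833104 (plus).
MSMO1: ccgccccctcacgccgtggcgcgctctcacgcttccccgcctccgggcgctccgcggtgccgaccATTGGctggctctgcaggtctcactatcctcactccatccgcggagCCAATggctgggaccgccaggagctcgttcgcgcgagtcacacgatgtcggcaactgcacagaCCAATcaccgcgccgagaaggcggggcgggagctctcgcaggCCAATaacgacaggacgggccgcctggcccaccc
INSIG1: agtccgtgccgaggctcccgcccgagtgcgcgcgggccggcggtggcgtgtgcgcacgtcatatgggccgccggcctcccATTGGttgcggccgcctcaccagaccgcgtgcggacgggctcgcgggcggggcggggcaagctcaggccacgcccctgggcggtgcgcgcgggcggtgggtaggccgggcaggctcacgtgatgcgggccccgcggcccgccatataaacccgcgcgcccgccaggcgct
STARD4: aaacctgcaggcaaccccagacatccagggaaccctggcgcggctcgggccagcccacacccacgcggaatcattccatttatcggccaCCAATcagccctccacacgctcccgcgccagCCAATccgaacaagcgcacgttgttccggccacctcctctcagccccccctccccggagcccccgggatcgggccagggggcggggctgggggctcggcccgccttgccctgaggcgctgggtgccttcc
LSS: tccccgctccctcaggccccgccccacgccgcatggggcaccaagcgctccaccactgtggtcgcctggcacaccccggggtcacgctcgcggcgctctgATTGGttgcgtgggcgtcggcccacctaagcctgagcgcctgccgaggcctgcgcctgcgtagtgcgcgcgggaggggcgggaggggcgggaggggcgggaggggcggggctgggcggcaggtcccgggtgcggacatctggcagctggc
SREBF2: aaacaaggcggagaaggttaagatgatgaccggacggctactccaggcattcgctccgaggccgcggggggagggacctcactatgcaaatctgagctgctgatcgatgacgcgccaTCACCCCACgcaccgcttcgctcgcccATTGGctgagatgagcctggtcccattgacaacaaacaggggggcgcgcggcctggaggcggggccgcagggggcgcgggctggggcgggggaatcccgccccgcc
MSMO1 holds the letters 4 times in this stretch, STARD4 holds them 2 times, and the other 3 genes hold them 1 time each. The core in SREBF2 begins 133 bases before the start.

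RefSeq promoters, taken without chromosome 8, were searched for 26 of the 30 genes, all but ACAT2, FDFT1, SQLE and FASN. Over 300 bases (250 before the start and 50 after it), CCAAT on either strand was found in 20 of the 26 genes (76.9%), against 39.7% of 27305 genes with a promoter and 42.9% of the 10862 of these that were tested here. GGGCGG, the letters bound by Sp1, was found in 25 of 26 (96.2%), against 48.3% and 74.3%. CACGTG, an E-box, was found in 4 of 26 (15.4%), in LSS, SC5D, INSIG1 and SCAP, against 8.77% and 12.1%. TCACNCCAC was found only in SREBF2 among the 26 (3.85%), against 1.39% and 1.44%. Both strands were searched, N stands for any base, and no motif's letters contain another's. A match describes the letters and shows no binding. A missing match does not show that an element is missing, since only these exact letters in these 300 bases were searched.

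RHOB itself was low in growth medium. It stood at 6.20, 4.68 and 1.42 CPM with siNC and at 3.17, 3.30 and 0.465 CPM with siRHOB, and in MK medium at 12.8, 10.1 and 32.7 and 12.6, 15.5 and 22.1 CPM (read counts scaled to TMM-normalised library size, replicates 1, 2 and 3 in this order here and throughout). The siRNA arms overlapped in both media. By pair of equal replicate number, the log2 difference of siRHOB minus siNC was -0.97, -0.50 and -1.61 in growth medium, lower in 3 of 3 pairs, and -0.03, 0.61 and -0.56 in MK medium. In an exact two-sided permutation test of log2 CPM the p was 0.5 in growth medium and 1 in MK medium, and 3 libraries against 3 cannot go below 0.1. Paired by number, the exact permutation p was 0.25 in growth medium, the smallest that 3 pairs allow, and 1 in MK medium. The group names below give the label of each library. Replicate 3 stood apart from replicates 1 and 2 in every group, so that results are given with and without it. Libraries held 34412558 to 54048161 reads. The 30 genes took 0.726% to 0.788% of the reads in replicates 1 and 2 of the growth groups, 0.479% to 0.480% in replicate 3 of the growth groups, and 0.425% to 0.536% in MK medium.

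The 9 erythroid-leukaemia markers of K562 summed to 4579 to 5867 CPM in growth medium and to 5454 to 9170 CPM in MK medium, which overlapped. The 8 megakaryocyte markers summed to 47.4 to 96.7 CPM in growth medium, where GP9, PF4 and VWF had 0 reads, and to 1101 to 1490 CPM in MK medium. Markers of adipocytes and hepatocytes, cells that make much lipid, summed to 0.102 to 0.245 CPM in growth and 0.426 to 0.938 CPM in MK medium over 7 genes, with PLIN1 and FABP4 at 0 in every group. The 5 lymphoid markers summed to 6.35 to 10.2 CPM in growth and 24.1 to 40.1 CPM in MK medium, with MS4A1 at 0. The 7 fibroblast, epithelial and endothelial markers summed to 218 to 266 CPM in growth and 271 to 500 CPM in MK medium, with CDH5 at 0 in growth medium. All but the erythroid sums were thus higher in every MK library than in every growth library. Their part in the results on the medium was not tested. In bulk RNA, fewer cells of a type and less RNA per cell cannot be told apart.

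In MK medium the lipid synthesis genes were called lower more often than higher. With siNC, 15 of the 30 fell and 3 rose (SQLE, TM7SF2 and INSIG2) at a Benjamini-Hochberg adjusted p under 0.05 in edgeR's quasi-likelihood test, called edgeR adjusted p below. With siRHOB, 14 fell and 4 rose, the added rise being STARD4. The medium moved much of the transcriptome: of 14026 genes tested, 28.4% fell and 30.5% rose with siNC, and 29.1% fell and 31% rose with siRHOB. The share of the 30 genes that was called in either direction (60% in each arm) was therefore close to the background (58.9% and 60.1%), while 50% of them with siNC and 46.7% with siRHOB were called lower and 10% and 13.3% higher. The median log2 fold change of the 30 was -0.59 with siNC and -0.47 with siRHOB, beside 0.06 and 0.05 over all tested genes. The same genes were called in both arms for 3 rises and 14 falls, 1 gene (EBP) was called with siNC alone, 1 (STARD4) with siRHOB alone, and 11 with neither. The difference between the arms was tested and passed for 0 of 30. The labels do not say whether the replicates were separate cultures, so these p-values measure the spread between libraries, which may be technical.

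Without replicate 3 of every group, 23 of the 30 fell and 4 rose with siNC, where 34% of all tested genes fell and 34.9% rose. With siRHOB, 21 fell and 6 rose, where 34.7% of all tested genes fell and 35.9% rose. Replicate 3 was left out because it stood apart, which narrows the spread. The adjusted p-values without it, here and below, may therefore be too small. The 8 added falls with siNC were HMGCS1, IDI1, FDPS, FDFT1, NSDHL, SC5D, DHCR7 and INSIG1. With the replicate number as a block, 19 fell and 4 rose with siNC (31.8% and 34.7% of all tested genes). Under the same block, 16 fell and 5 rose with siRHOB (32.2% and 35.4%). The block takes libraries of equal number as belonging together, which was not shown.

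**Figure D1:**
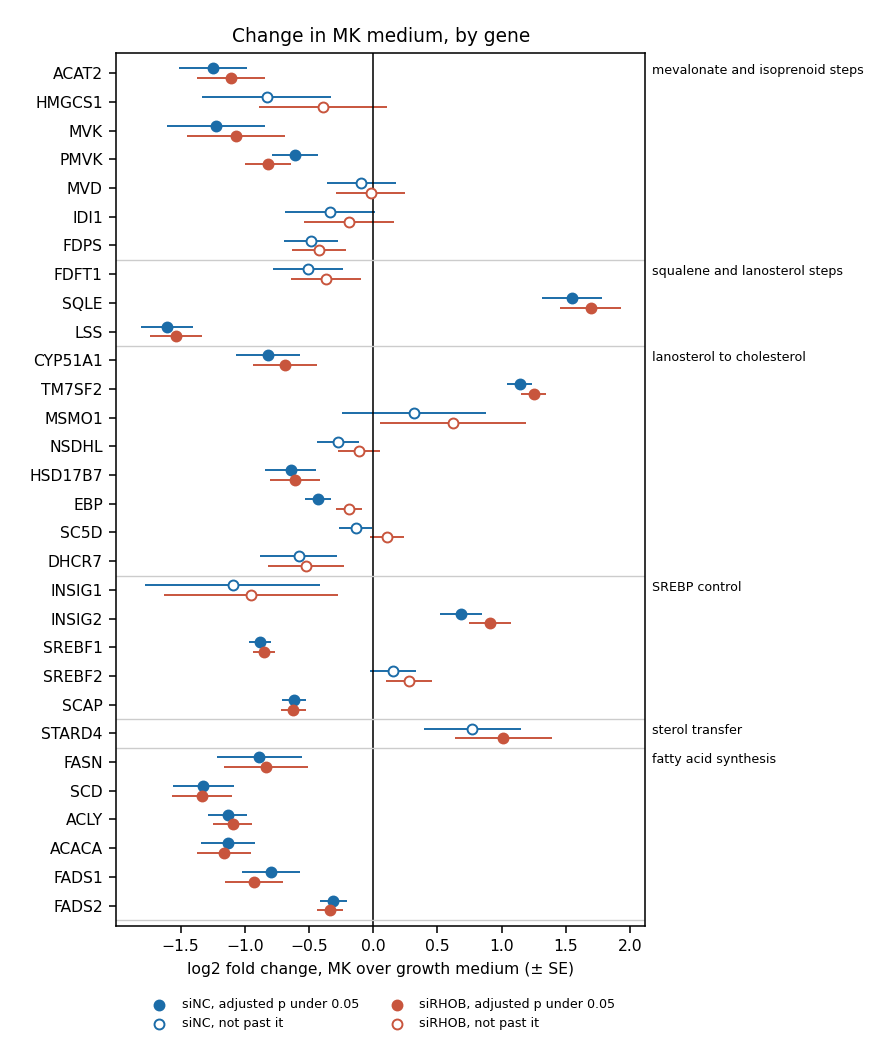
Each row is a gene, grouped by role, and the x axis is the log2 fold change of MK over growth medium with siNC (blue) and siRHOB (red), from 3 libraries a group. Bars are the standard error, and filled points passed an edgeR adjusted p of 0.05. All 6 fatty acid synthesis genes lie left of 0 with filled points, and SQLE and TM7SF2 lie farthest right.

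In the mevalonate and isoprenoid steps, 3 of 7 genes fell in each arm (42.9%), the other 4 did not pass the test, and all 7 estimates were below 0. Of the 14026 tested genes, 28.4% fell with siNC and 29.1% with siRHOB, and 6647 and 6710 had estimates below 0. ACAT2, the cytosolic thiolase that joins the first 2 acetyl units, stood at 112, 115 and 85 CPM in growth medium with siNC, 95.4, 106 and 85.8 CPM there with siRHOB, 49, 55.9 and 26.7 CPM in MK medium with siNC and 50.5, 51.7 and 31.2 CPM there with siRHOB. Every MK library lay below every growth library. Its log2 fold change was -1.25 ± 0.27 (SE) with siNC (edgeR adjusted p = 0.0022) and -1.11 ± 0.26 with siRHOB (edgeR adjusted p = 0.0041). ACAT2 overlaps TCP1 and SOD2 on the opposite strand in the GENCODE annotation, and the sources used here do not give whether counting used strand.

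MVK, mevalonate kinase, stood at 23.8, 23.4 and 9.54 CPM in growth medium with siNC, 23.3, 22.6 and 10.5 CPM there with siRHOB, 8.28, 9.86 and 6.14 CPM in MK medium with siNC and 9.02, 10.9 and 6.90 CPM there with siRHOB. The growth libraries of replicate 3 reached down to the MK libraries of replicate 2, so the groups overlapped. MVK fell by 2.34-fold with siNC (log2 -1.22 ± 0.38, edgeR adjusted p = 0.018) and by 2.10-fold with siRHOB (log2 -1.07 ± 0.38, edgeR adjusted p = 0.032). With 1 library, or replicate 3 of every group, left out, its log2 fold change spanned -1.55 to -1.03 with siNC (such a range is called the span below), and the call was lost without Ctl_siNC replicate 1 or 2 or MK_siNC replicate 3. With siRHOB the span was -1.36 to -0.90, and the call was lost without replicate 1 or 2 of Ctl_siRHOB or replicate 1 or 3 of MK_siRHOB. MVK overlaps MMAB on the opposite strand.

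PMVK, phosphomevalonate kinase and the next enzyme, was a low gene at 9.13, 9.51 and 12.5 CPM in growth medium with siNC, 7.67, 10.7 and 11.3 CPM there with siRHOB, 7.13, 6.20 and 7.10 CPM in MK medium with siNC and 5.59, 5.74 and 5.50 CPM there with siRHOB. It was the gene of this group whose replicate 3 was not low in growth medium. PMVK fell in both arms, with log2 -0.61 ± 0.18 with siNC (edgeR adjusted p = 0.012) and -0.82 ± 0.18 with siRHOB (edgeR adjusted p = 0.0022).

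HMGCS1, the synthase that makes HMG-CoA, did not pass the test but differed widely between libraries. It stood at 627, 605 and 150.2 CPM in growth medium with siNC, 376, 472 and 177 CPM there with siRHOB, 276, 316 and 185 CPM in MK medium with siNC and 287, 290.3 and 205 CPM there with siRHOB. In growth medium replicate 3 lay at 24.4% of the mean of replicates 1 and 2 with siNC and at 41.8% with siRHOB. By pair of equal replicate number, the log2 change in MK medium was -1.18, -0.94 and 0.30 with siNC and -0.39, -0.70 and 0.21 with siRHOB, so that the sign turned in the third pair. Over all libraries the log2 fold change was -0.83 ± 0.50 with siNC (edgeR adjusted p = 0.18). Without replicate 3 it was -1.07 ± 0.10 with siNC (edgeR adjusted p = 5.7e-07) and -0.57 ± 0.10 with siRHOB (edgeR adjusted p = 0.00015).

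MVD, the decarboxylase that ends the mevalonate steps, ranged over 60.8 to 87.8 CPM in growth medium and 46.1 to 87.1 CPM in MK medium with siNC, with a log2 fold change of -0.09 ± 0.27. IDI1, the isomerase of the isoprenoid units, ranged over 103 to 246 and 115 to 176 CPM, with log2 -0.34 ± 0.35. FDPS, which makes farnesyl diphosphate, ranged over 137 to 201 and 93.4 to 149 CPM. Its log2 fold change was -0.48 ± 0.21 with siNC (edgeR adjusted p = 0.069). With the replicate block FDPS passed in both arms, at -0.49 ± 0.08 with siNC (edgeR adjusted p = 0.00019) and -0.44 ± 0.08 with siRHOB (edgeR adjusted p = 0.00041). FDPS has pseudogene copies, and the sources used here do not give how reads shared with them were counted.

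The 3 squalene and lanosterol steps gave the pathway's largest rise and largest fall next to each other. SQLE, squalene epoxidase, which adds the first oxygen on the way to the rings, stood at 313, 319.7 and 191 CPM in growth medium with siNC, 289, 284 and 201 CPM there with siRHOB, 690.0, 728 and 988 CPM in MK medium with siNC and 724, 747 and 1033 CPM there with siRHOB. Every MK library lay above every growth library, by more than the spread in any group. SQLE rose 2.92-fold with siNC (log2 1.55 ± 0.24, edgeR adjusted p = 0.00023) and 3.24-fold with siRHOB (log2 1.69 ± 0.24, edgeR adjusted p = 0.00012). Replicate 3 was the lowest of its group in growth medium and the highest in MK medium. Without it the rise was smaller, at log2 1.16 ± 0.06 with siNC (edgeR adjusted p = 3.9e-10) and 1.35 ± 0.06 with siRHOB (edgeR adjusted p = 7.9e-11).

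LSS, lanosterol synthase, acts on the product of SQLE and closes the rings. It stood at 141, 142 and 95 CPM in growth medium with siNC, 132, 138 and 82.4 CPM there with siRHOB, 44.3, 42.8 and 36.6 CPM in MK medium with siNC and 43.5, 41.3 and 36.5 CPM there with siRHOB. The MK libraries lay within 36.5 to 44.3 CPM and the lowest growth library at 82.4 CPM. LSS fell 3.05-fold with siNC (log2 -1.61 ± 0.20, edgeR adjusted p = 5.9e-05) and 2.90-fold with siRHOB (log2 -1.54 ± 0.20, edgeR adjusted p = 7e-05). By pair, its log2 change was -1.66, -1.73 and -1.38 with siNC and -1.60, -1.74 and -1.18 with siRHOB.

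FDFT1, squalene synthase, the step before SQLE, stood at 339, 377 and 176 CPM in growth medium with siNC, 313, 306 and 179 CPM there with siRHOB, 218, 231 and 179 CPM in MK medium with siNC and 206, 228 and 186 CPM there with siRHOB. Its replicates 1 and 2 were lower in MK than in growth medium in both arms, and pair 3 differed by 0.02 and 0.05 on the log2 scale. FDFT1 did not pass over all libraries, with log2 -0.51 ± 0.27 with siNC (edgeR adjusted p = 0.13). It passed with siNC under the replicate block, at -0.45 ± 0.15 (edgeR adjusted p = 0.022), and in both arms without replicate 3, at -0.68 ± 0.07 and -0.52 ± 0.07.

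**Figure D2:**
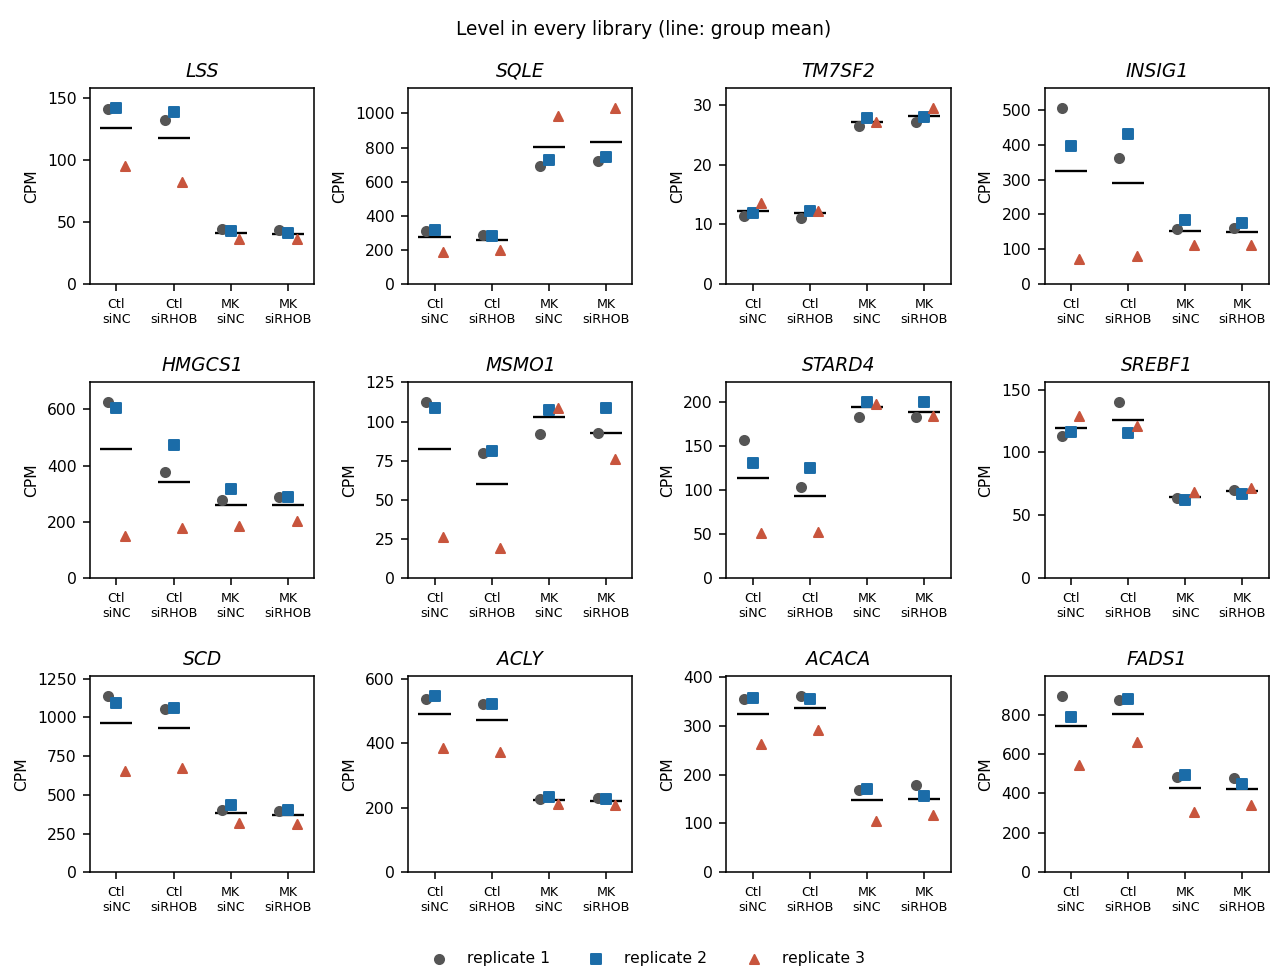
Each panel is a gene, with CPM on a linear axis from 0 and 1 point for each of the 12 libraries, marked by replicate number, and the line is the group mean. LSS, SREBF1, SCD, ACLY, ACACA and FADS1 lie lower in all MK libraries, SQLE and TM7SF2 lie higher in all of them, and in INSIG1, HMGCS1, MSMO1 and STARD4 replicate 3 of the growth groups lies far below replicates 1 and 2.

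Of the 8 genes between lanosterol and cholesterol, 1 rose (12.5%) and 3 fell (37.5%) with siNC, and 1 rose (12.5%) and 2 fell (25%) with siRHOB. Of all tested genes, 30.5% rose and 28.4% fell with siNC, and 31% and 29.1% with siRHOB. TM7SF2, a sterol C14 reductase, stood at 11.5, 11.9 and 13.6 CPM in growth medium with siNC, 11.1, 12.2 and 12.2 CPM there with siRHOB, 26.6, 27.9 and 27.1 CPM in MK medium with siNC and 27.1, 28 and 29.5 CPM there with siRHOB. Its groups were narrow, and the media did not overlap. TM7SF2 rose 2.21-fold with siNC (log2 1.14 ± 0.10, edgeR adjusted p = 3.5e-06) and 2.38-fold with siRHOB (log2 1.25 ± 0.10, edgeR adjusted p = 1.6e-06). The annotation places VPS51 over it on the same strand, so reads in the shared stretch cannot be assigned with certainty. LBR, the lamin B receptor, which carries the same reductase activity, went the other way, from 607 ± 68.9 CPM (SD, n = 3) in growth to 208 ± 23.9 CPM in MK medium with siNC (log2 -1.54 ± 0.12, edgeR adjusted p = 2.1e-06).

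CYP51A1, the lanosterol demethylase and the first step of this stretch, stood at 240.5, 215 and 128 CPM in growth medium with siNC, 179.8, 197 and 126 CPM there with siRHOB, 108, 131 and 92.5 CPM in MK medium with siNC and 112, 118 and 81.5 CPM there with siRHOB. With siNC the lowest growth library and the highest MK library crossed, and with siRHOB the media did not overlap. CYP51A1 fell, with a log2 fold change of -0.82 ± 0.25 with siNC (edgeR adjusted p = 0.015) and -0.69 ± 0.25 with siRHOB (edgeR adjusted p = 0.033). Its spans were -1.05 to -0.65 and -0.86 to -0.54. The siNC call was lost without Ctl_siNC replicate 1 or 2 or MK_siNC replicate 3, and the siRHOB call without Ctl_siRHOB replicate 1 or 2 or MK_siRHOB replicate 1 or 3.

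HSD17B7, a 3-ketosteroid reductase of the C4 demethylation complex, stood at 15.3, 14.4 and 11 CPM in growth medium with siNC, 13.4, 16 and 9.63 CPM there with siRHOB, 7.50, 9.66 and 8.95 CPM in MK medium with siNC and 9.50, 8.17 and 7.91 CPM there with siRHOB. The media did not overlap within either arm. HSD17B7 fell with siNC (log2 -0.64 ± 0.20, edgeR adjusted p = 0.016) and with siRHOB (log2 -0.61 ± 0.20, edgeR adjusted p = 0.02). The siNC call was lost without replicate 1 of Ctl_siNC or of MK_siNC, and the siRHOB call without replicate 2 of Ctl_siRHOB or replicate 2 or 3 of MK_siRHOB, with spans of -0.80 to -0.55 and -0.79 to -0.44. HSD17B7 also has a pseudogene copy that can share reads.

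EBP, the sterol isomerase, stood at 94.4, 88 and 81.1 CPM in growth medium with siNC, 76, 90.7 and 71.4 CPM there with siRHOB, 67.7, 64.6 and 63.3 CPM in MK medium with siNC and 67.8, 76.2 and 64.8 CPM there with siRHOB. Its groups lay within a narrow range, and with siRHOB the media overlapped. EBP fell with siNC (log2 -0.43 ± 0.10, edgeR adjusted p = 0.0037) and did not pass with siRHOB (log2 -0.19 ± 0.10, edgeR adjusted p = 0.13). The difference between the arms was 0.24 ± 0.14 (edgeR adjusted p = 1 after rounding), so the arms were not shown to differ.

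MSMO1, the C4 methyl oxidase, stood at 113, 109 and 26.2 CPM in growth medium with siNC, 79.7, 81.5 and 19.1 CPM there with siRHOB, 92.1, 108 and 109 CPM in MK medium with siNC and 92.5, 109 and 76.2 CPM there with siRHOB. In growth medium replicate 3 was at 23.7% of the mean of replicates 1 and 2 in each arm, and in MK medium at 109% with siNC and 75.7% with siRHOB. The pairs therefore gave log2 changes of -0.29, -0.01 and 2.05 with siNC and 0.21, 0.41 and 1.99 with siRHOB. Over all libraries MSMO1 did not pass in either arm, with log2 0.32 ± 0.56 with siNC (edgeR adjusted p = 0.65) and 0.62 ± 0.57 with siRHOB (edgeR adjusted p = 0.36). Without replicate 3 its siNC estimate turned to -0.16 ± 0.09 (edgeR adjusted p = 0.13), and with siRHOB it passed at 0.31 ± 0.09 (edgeR adjusted p = 0.0067).

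The 3 other late genes did not pass over all libraries. NSDHL, the C4 decarboxylating dehydrogenase, ranged over 38.9 to 57.1 CPM in growth and 37.5 to 45.5 CPM in MK medium with siNC (log2 -0.27 ± 0.16). With the replicate block NSDHL passed with siNC at -0.26 ± 0.08 (edgeR adjusted p = 0.018). It did not pass with siRHOB under the block, at -0.115 ± 0.084 (edgeR adjusted p = 0.245). SC5D, the C5 desaturase, ranged over 36.5 to 49.3 and 37.5 to 43.4 CPM, with log2 -0.14 ± 0.13 with siNC and 0.11 ± 0.13 with siRHOB. DHCR7, the last reductase, ranged over 114 to 197 and 78.8 to 138 CPM with log2 -0.58 ± 0.30, and was lower in MK medium in 3 of 3 pairs of each arm. With the block DHCR7 passed in both, at -0.58 ± 0.08 with siNC (edgeR adjusted p = 0.00011) and -0.49 ± 0.08 with siRHOB (edgeR adjusted p = 0.00032).

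Among the 5 genes of SREBP control, 2 fell (40%) and 1 rose (20%) in each arm. Of all tested genes, 28.4% fell and 30.5% rose with siNC, and 29.1% and 31% with siRHOB. SREBF1, which encodes the SREBP-1 factors, stood at 113, 117 and 129 CPM in growth medium with siNC, 140.3, 115 and 121 CPM there with siRHOB, 63.8, 62.4 and 68.3 CPM in MK medium with siNC and 70.1, 67.1 and 71.7 CPM there with siRHOB. Its replicate 3 was not low in any group, and the media did not overlap. SREBF1 fell 1.84-fold with siNC (log2 -0.88 ± 0.09, edgeR adjusted p = 1.1e-05) and 1.80-fold with siRHOB (log2 -0.85 ± 0.09, edgeR adjusted p = 1.2e-05).

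SCAP, the escort protein, stood at 132, 144 and 125 CPM in growth medium with siNC, 154, 137 and 123 CPM there with siRHOB, 91.9, 89.1 and 81.3 CPM in MK medium with siNC and 92.5, 92.3 and 83.8 CPM there with siRHOB. All MK libraries lay below all growth libraries. SCAP fell with siNC (log2 -0.62 ± 0.10, edgeR adjusted p = 0.00025) and with siRHOB (log2 -0.62 ± 0.10, edgeR adjusted p = 0.00022). SREBF2, the sterol regulator, ranged over 174 to 228 CPM in growth and 191 to 249.9 CPM in MK medium with siNC, with log2 0.15 ± 0.18 (edgeR adjusted p = 0.48) and 0.28 ± 0.18 with siRHOB (edgeR adjusted p = 0.19). With the replicate block it passed with siRHOB alone, at 0.29 ± 0.07 (edgeR adjusted p = 0.0039), against 0.15 ± 0.07 with siNC (edgeR adjusted p = 0.077).

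The 2 INSIG genes, whose proteins retain SCAP, had estimates of opposite sign. INSIG2 stood at 18.1, 15.9 and 11.7 CPM in growth medium with siNC, 12.9, 14.5 and 11.3 CPM there with siRHOB, 21.3, 25.1 and 26.9 CPM in MK medium with siNC and 22.3, 25.2 and 25.1 CPM there with siRHOB. It was higher in every MK library than in every growth library. INSIG2 rose 1.61-fold with siNC (log2 0.68 ± 0.16, edgeR adjusted p = 0.0039) and 1.88-fold with siRHOB (log2 0.91 ± 0.16, edgeR adjusted p = 0.00063). Without replicate 3 the siNC value was 0.44 ± 0.12 (edgeR adjusted p = 0.0054).

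INSIG1, itself a target of SREBP, stood at 505, 395 and 73.1 CPM in growth medium with siNC, 362, 429 and 80.7 CPM there with siRHOB, 159.5, 183 and 113 CPM in MK medium with siNC and 162, 176 and 112 CPM there with siRHOB. In growth medium replicate 3 lay at 16.3% of the mean of replicates 1 and 2 with siNC and at 20.4% with siRHOB, below every MK library. The pairs gave log2 changes of -1.66, -1.11 and 0.63 with siNC and -1.16, -1.28 and 0.47 with siRHOB. INSIG1 did not pass over all libraries (log2 -1.09 ± 0.68 with siNC, edgeR adjusted p = 0.19). Without replicate 3 it fell, with log2 -1.41 ± 0.13 with siNC (edgeR adjusted p = 7.2e-06) and -1.24 ± 0.13 with siRHOB (edgeR adjusted p = 1.7e-05).

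STARD4, a carrier that moves sterol between membranes, stood at 157, 131 and 51.8 CPM in growth medium with siNC, 103, 125 and 52 CPM there with siRHOB, 183, 199.9 and 198 CPM in MK medium with siNC and 182, 199.6 and 184 CPM there with siRHOB. All MK libraries lay above all growth libraries, most widely in the third pair. STARD4 did not pass with siNC (log2 0.77 ± 0.38, edgeR adjusted p = 0.1) and rose with siRHOB (log2 1.01 ± 0.38, edgeR adjusted p = 0.039). The siRHOB call was lost without any 1 of 9 libraries, all but Ctl_siNC replicates 1 and 3 and Ctl_siRHOB replicate 2, with a span of 0.72 to 1.28. Without replicate 3 it rose in both arms, with a smaller siNC value of 0.40 ± 0.11 (edgeR adjusted p = 0.0052) and 0.73 ± 0.11 with siRHOB (edgeR adjusted p = 6e-05). With the replicate block it passed in both arms, at 0.89 ± 0.34 with siNC (edgeR adjusted p = 0.045) and 1.10 ± 0.33 with siRHOB (edgeR adjusted p = 0.019).

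All 6 genes of fatty acid synthesis and desaturation fell in both arms, with a median log2 fold change of -1.01 in each. Of all tested genes, 28.4% fell with siNC and 29.1% with siRHOB. They also fell in both arms without replicate 3. Their summed level was 4255, 4128 and 2623 CPM in growth and 1986, 2076 and 1388 CPM in MK medium with siNC, and 4301, 4083 and 2694 and 2008, 1978 and 1473 CPM with siRHOB. ACLY, which makes cytosolic acetyl-CoA from citrate and so feeds both pathways, stood at 537, 548 and 385 CPM in growth medium with siNC, 522, 524 and 373 CPM there with siRHOB, 226, 233 and 212 CPM in MK medium with siNC and 230.0, 226 and 209 CPM there with siRHOB. ACLY fell 2.19-fold with siNC (log2 -1.13 ± 0.15, edgeR adjusted p = 8.6e-05) and 2.13-fold with siRHOB (log2 -1.09 ± 0.15, edgeR adjusted p = 9.9e-05).

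ACACA, the acetyl-CoA carboxylase of the first committed step, stood at 355, 357 and 264 CPM in growth medium with siNC, 362, 356 and 291 CPM there with siRHOB, 169.5, 171 and 105 CPM in MK medium with siNC and 178, 156 and 117 CPM there with siRHOB. The lowest growth library lay above the highest MK library by a wide gap. ACACA fell with siNC (log2 -1.13 ± 0.21, edgeR adjusted p = 0.00088) and with siRHOB (log2 -1.16 ± 0.21, edgeR adjusted p = 0.0007). FASN, fatty acid synthase, which builds palmitate, stood at 1293, 1301 and 733 CPM in growth medium with siNC, 1439, 1224 and 659 CPM there with siRHOB, 669, 712 and 419 CPM in MK medium with siNC and 692, 711 and 462 CPM there with siRHOB. With siRHOB its replicate 3 in growth medium lay among the MK libraries. FASN fell with siNC (log2 -0.89 ± 0.33, edgeR adjusted p = 0.038) and with siRHOB (log2 -0.83 ± 0.33, edgeR adjusted p = 0.048). The FASN calls were close to the threshold. With siNC the call was lost without Ctl_siNC replicate 1 or 2 or MK_siNC replicate 1 or 3 (span -1.12 to -0.70), and with siRHOB without any 1 of 9 libraries, all but replicate 3 of Ctl_siNC, Ctl_siRHOB and MK_siNC (span -1.10 to -0.61).

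SCD, the stearoyl-CoA desaturase, which puts the first double bond into saturated chains, stood at 1139.8, 1095 and 656 CPM in growth medium with siNC, 1056, 1058 and 675 CPM there with siRHOB, 404, 437 and 316 CPM in MK medium with siNC and 393, 401 and 314 CPM there with siRHOB. The lowest growth library lay above the highest MK library. SCD fell 2.50-fold with siNC (log2 -1.32 ± 0.23, edgeR adjusted p = 0.00065) and 2.52-fold with siRHOB (log2 -1.33 ± 0.23, edgeR adjusted p = 0.00058), the largest fall of these 6 genes.

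FADS1 and FADS2, the desaturases of polyunsaturated chains, lie together in the genome and overlap on opposite strands in the annotation, and FADS2 also overlaps FEN1. FADS1 stood at 896, 788 and 546 CPM in growth medium with siNC, 873, 879 and 659 CPM there with siRHOB, 486, 493 and 307 CPM in MK medium with siNC and 480.3, 449 and 339 CPM there with siRHOB. It fell with siNC (log2 -0.79 ± 0.23, edgeR adjusted p = 0.011) and with siRHOB (log2 -0.93 ± 0.23, edgeR adjusted p = 0.0047). FADS2 was far lower in reads, at 35.1, 37.9 and 38.7 CPM in growth medium with siNC, 49.1, 41.2 and 37.1 CPM there with siRHOB, 32, 29.9 and 28.2 CPM in MK medium with siNC and 34.7, 33.8 and 32.4 CPM there with siRHOB. The media did not overlap within an arm, by a small margin. FADS2 fell least of the 6, with log2 -0.31 ± 0.10 with siNC (edgeR adjusted p = 0.023) and -0.34 ± 0.10 with siRHOB (edgeR adjusted p = 0.015). Its siNC call was lost without replicate 2 or 3 of Ctl_siNC or of MK_siNC (span -0.37 to -0.25), and its siRHOB call without Ctl_siRHOB replicate 1 (span -0.43 to -0.23).

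The deposited FPKM values, which divide by gene length, give the order of levels between genes. In growth medium with siNC, SCD was the highest of the 30 at 171 ± 41.2 FPKM (SD, n = 3), followed by FADS1 at 164 ± 33.4, FDFT1 at 129 ± 42, FASN at 127 ± 32.8 and FDPS at 124 ± 19.5 FPKM. INSIG2 was the lowest at 6.22 ± 1.10 FPKM, level with SC5D at 6.23 ± 0.738 FPKM. Most neighbours in this order overlapped between libraries. Those that did not were EBP above ACAT2, SREBF1 above HSD17B7 and TM7SF2 above SC5D. In MK medium with siNC, SQLE was the highest at 274 ± 52.9 FPKM, with every library above every library of FADS1, the next at 99.1 ± 24.9 FPKM. SQLE had stood at 89.2 ± 20.1 FPKM in growth medium, in the eighth place. LSS went from 31.4 ± 5.44 to 10.8 ± 1.15 FPKM, and MVK was the lowest in MK medium at 4.09 ± 0.963 FPKM. With siRHOB, SQLE went from 84 ± 13.3 to 286 ± 58.4 FPKM and LSS from 29.3 ± 6.71 to 10.6 ± 0.978 FPKM.

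Between the siRNA arms 0 of the 30 genes passed in growth medium, 0 in MK medium and 0 for the difference between media, where 0% of the 14026 tested genes were called in each comparison by edgeR. RHOB itself overlapped between the arms in both media, so a lack of calls does not show a lack of RHOB effect. At an unadjusted p under 0.05, edgeR gave 156, 50 and 106 genes, of which 0 were among the 30, and DESeq2 called 0 genes in each. Each edgeR count was below the share of 0.05 of the 14026 genes that unchanged genes alone would give. The fit has no term for the replicate number, so the spread between replicates enters its error. With the replicate number as a block, 0 of the 30 passed in each comparison as well. A count of 0 of 30 does not show that the arms were equal. The median log2 difference of the 30, siRHOB minus siNC, was -0.09 in growth medium and -0.01 in MK medium. All tested genes had medians of -0.00056 and -0.0060. Of the 30, 25 lay below 0 in growth medium and 16 in MK medium, beside 7047 and 7408 of the 14026 tested genes. The signs of the 30 need not be independent of each other. In growth medium the largest estimates were MSMO1 at -0.46 ± 0.56 and HMGCS1 at -0.43 ± 0.50. Both standard errors were larger than the estimates. By pair, MSMO1 differed by -0.50, -0.41 and -0.45 and HMGCS1 by -0.74, -0.36 and 0.24, so that the first was lower in 3 of 3 pairs and the second in 2 of 3.

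In growth medium 8 of the 30 were lower with siRHOB in 3 of 3 pairs of equal number (26.7%), against 9.95% of all tested genes, and 0 were higher in 3 of 3, against 8.41%. The 8 were CYP51A1, MSMO1, LSS, INSIG2, ACLY, MVD, SC5D and IDI1, with sizes from -0.04, -0.06 and -0.05 for ACLY to those of MSMO1. In MK medium 5 were lower in 3 of 3 (background 12.7%) and 7 higher (background 13.3%). Estimates of the fatty acid genes ran from -0.05 to 0.19 in growth and -0.06 to 0.16 in MK medium, with FADS2 the highest in each. FADS2, named here because its estimates were the highest, was among the 7 higher with siRHOB in 3 of 3 pairs in MK medium. The arms lay close there, at 28.2 to 32 against 32.4 to 34.7 CPM. In growth medium its pairs differed by 0.48, 0.12 and -0.06. Without replicate 3 its growth estimate was 0.31 ± 0.09 (edgeR adjusted p = 0.62). Without replicate 3 the growth estimates of MSMO1 and HMGCS1 were -0.45 ± 0.09 and -0.54 ± 0.09, and neither passed (edgeR adjusted p = 0.22 for both).

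**Figure D3:**
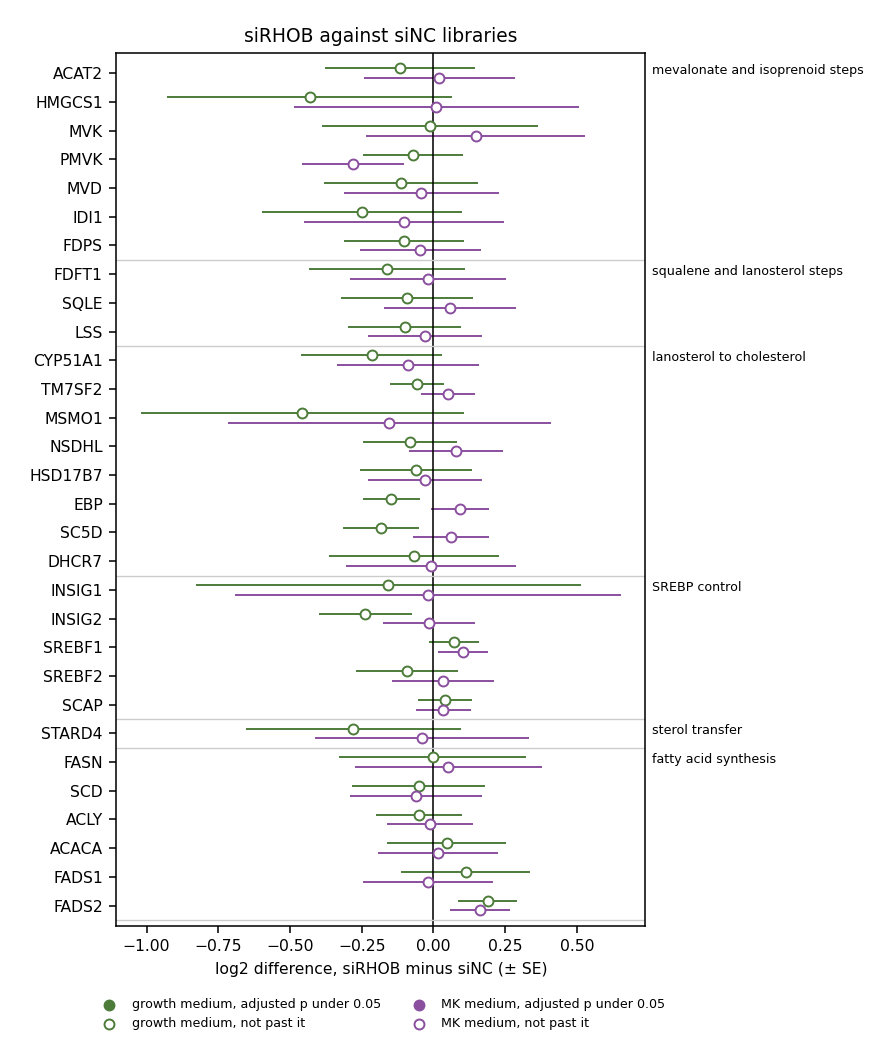
The x axis is the log2 difference of siRHOB minus siNC libraries in growth medium (green) and MK medium (purple), with the standard error as bars, from 3 libraries a group. All points are open because none of the 30 genes passed, and the sterol genes lie mostly just left of 0 in growth medium.

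Replicate 3 had low sterol and fatty acid synthesis genes in growth medium, and fewer of the 30 were low in MK medium. This was examined after the libraries had been seen. The fit had medium by replicate 3 and terms for the siRNA and for replicate 2 against 1. It takes the 2 siRNA arms as the repeat. Replicate 3 is a single replicate number, picked for standing apart, so the p-values of this fit do not measure a spread between replicates. In growth medium 25 of the 30 were lower in replicate 3 and 0 higher (edgeR adjusted p under 0.05), with a median log2 difference of -0.51, where 17.2% of all tested genes were lower and 16.9% higher. In MK medium 18 were lower and 1, SQLE, was higher, with a median of -0.28 and backgrounds of 20.5% and 22.2%. The 5 that did not pass in growth medium were EBP, SREBF1, TM7SF2, FADS2 and PMVK. Replicate 2 over replicate 1 gave medians of 0.01 to 0.09 over the 30 in the 4 groups.

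In growth medium INSIG1 differed most, by log2 -2.46 ± 0.12 (edgeR adjusted p = 2.2e-08), MSMO1 by -2.08 ± 0.13 (edgeR adjusted p = 1.2e-07) and HMGCS1 by -1.65 ± 0.21 (edgeR adjusted p = 0.00079). STARD4 differed by -1.31 ± 0.11, MVK by -1.22 ± 0.12 and IDI1 by -1.07 ± 0.08. Of the fatty acid genes FASN differed most, by -0.92 ± 0.07, and FADS2 least, by -0.10 ± 0.09. In MK medium ACAT2 differed most, by -0.84 ± 0.08, followed by MVD at -0.77 ± 0.07 and FASN at -0.66 ± 0.07, while INSIG1 was at -0.60 ± 0.11 and STARD4 at -0.01 ± 0.10.

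The change in MK medium therefore differed between replicate 3 and the other replicates. It was higher in replicate 3 for 12 of the 30 and lower for 1, against 12.6% and 13.1% of all tested genes. All 3 squalene and lanosterol genes were among the 12. The labels do not say what sets replicate 3 apart. The values given without it show how far the estimates for the medium rest on it, but their p-values may be too small, as stated above.

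**Figure D4:**
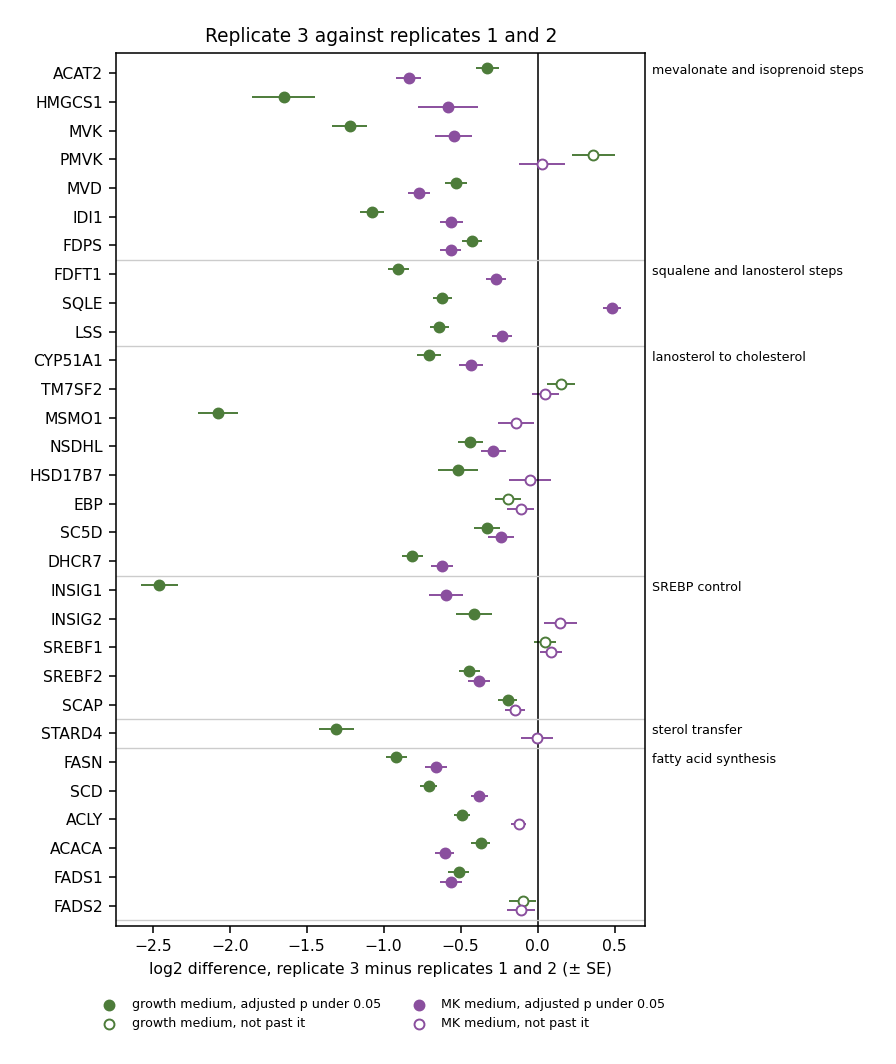
The x axis is the log2 difference of replicate 3 minus replicates 1 and 2 in growth medium (green) and MK medium (purple), each over both siRNA arms, with the standard error as bars. INSIG1, MSMO1 and HMGCS1 lie farthest left in growth medium, and SQLE lies left of 0 in growth medium and right of 0 in MK medium.

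Genes of neighbouring lipid pathways were counted by lists chosen with earlier results of these data known. Their counts stand beside the 30.5% of all tested genes that rose and the 28.4% that fell with siNC, and the 31% and 29.1% with siRHOB, so that shares near these say nothing of a list. Of 24 tested genes of fatty acid activation, elongation and lipid assembly, 12 fell (50%) and 7 rose (29.2%) with siNC, and 11 and 8 with siRHOB. ELOVL6, an elongase of saturated chains, went from 124 ± 13.5 to 34.6 ± 4.50 CPM with siNC (log2 -1.84 ± 0.16, edgeR adjusted p = 4.2e-06). ELOVL7, another elongase, went from 7.29 ± 2.71 to 175 ± 8.17 CPM (log2 4.58 ± 0.27, edgeR adjusted p = 4e-07). HACD3, a dehydratase of the elongation cycle, fell with log2 -1.35 ± 0.12. ELOVL6 and ELOVL7, of the same enzyme family, thus moved in opposite directions.

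Of 19 genes of sterol sensing, processing and the isoprenoid branch, 10 fell (52.6%) and 5 rose (26.3%) in each arm, LBR among the falls. LPCAT3, a phospholipid remodelling enzyme, fell with log2 -0.90 ± 0.08. Of 18 tested genes of sterol efflux, esterification and trafficking, 8 rose (44.4%) and 2 fell (11.1%) with siNC, and 7 and 3 with siRHOB. ABCA1, the pump that exports cholesterol, went from 0.183 ± 0.197 to 17.9 ± 13 CPM (log2 6.61 ± 0.81, edgeR adjusted p = 6.2e-05), and the oxysterol-binding protein genes OSBPL2 and OSBPL5 rose with log2 0.84 ± 0.07 and 0.86 ± 0.12.

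Of 18 genes of fatty acid oxidation, 7 rose (38.9%) and 2 fell (11.1%) in each arm. ACADVL, the very long chain acyl-CoA dehydrogenase, rose from 206 ± 6.87 to 502 ± 16.2 CPM (log2 1.28 ± 0.06, edgeR adjusted p = 8.7e-08). The 2 that fell were HADH at log2 -1.23 ± 0.09, and CPT1A, the carnitine transferase of mitochondrial entry, at -1.15 ± 0.17. Of 16 genes of lipid droplets and uptake, 6 rose (37.5%) and 4 fell (25%) in each arm. PLIN5, a droplet coat protein, rose with log2 2.38 ± 0.28, while FABP5, a fatty acid carrier, and LPL, lipoprotein lipase, fell with -2.25 ± 0.21 and -2.54 ± 0.44. The medians of the 5 lists with siNC were -0.35, -0.23, 0.42, 0.08 and 0.49 in the order given here, beside 0.06 over all tested genes.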

How the data were processed

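The authors deposited a count table (whole reads, by gene symbol) and an FPKM table, each with 1 column per library. GRCh37.p13, featureCounts 2.0.2, HISAT2 2.2.1 and edgeR are listed in the submitters' processing notes, without their roles. The sources used here do not give strand and multi-mapping settings. Each deposited FPKM value is the count over gene length and library total. Libraries were made from polyT-selected RNA with PCR, per the labels.

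Counts of all 12 libraries entered 1 fit of 4 group means in edgeR 4.0.16 (R 4.3.3, limma 3.58.1): TMM scaling, filterByExpr by group, robust quasi-likelihood F test, two-sided, Benjamini-Hochberg adjustment over 14026 genes, threshold 0.05. The standard error (SE) was taken as the size of the log2 fold change over the root of F. Scripts were tested on simulated data. No pair of libraries within a group was a copy, since the chi-square per gene was 4.21 or more. Pairs across groups were not checked in this way. Deviations of libraries with equal replicate number correlated at 0.151 to 0.834 between groups, over 0.1 in every pair. Libraries of unequal number were not compared by this measure, so it does not show that equal numbers pair the libraries. Fits with the number as a block, and values by pair, take this pairing as given. The block fits are given where calls change.

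The alternatives were RLE scaling, no filter, DESeq2 1.42.0, limma on log2(FPKM + 1) and log2(FPKM + 0.1) with a mean FPKM of at least 0.5 and with no filter, the replicate block, each library left out, and replicate 3 left out. The replicate 3 fit was added after seeing the data. The 30 genes and the other lists were chosen with earlier results of these data known. Genes past the threshold in either medium comparison got their values in all libraries. Of each other list, the 3 genes with the smallest adjusted p with siNC were named, except 1 that is not reported here. INSIG1, HMGCS1, MSMO1 and FDFT1 got values in all libraries after theirs were seen. Promoters came from RefSeq (GRCh38.p14), without chromosome 8, and gene overlaps from GENCODE. Genome coordinates of the deposited build were not used here.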

Additional observations from a re-analysis of the deposited data

Results flagged for a closer look

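In 13 of the 30 genes the change in MK medium differed between replicate 3 and replicates 1 and 2, by the interaction of medium and replicate 3 (edgeR adjusted p under 0.05). The log2 change in MK medium was higher in replicate 3 by 1.94 for MSMO1, 1.86 for INSIG1, 1.30 for STARD4, 1.10 for SQLE, 1.07 for HMGCS1, 0.68 for MVK, 0.63 for FDFT1, 0.56 for INSIG2, 0.51 for IDI1, 0.41 for LSS, 0.37 for ACLY and 0.33 for SCD. It was lower in replicate 3 for ACAT2, at -0.51. The fit took the siRNA arms as the repeat, so its p-values do not measure a spread between replicates. The labels do not say what distinguishes replicate 3.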

How the results depend on the processing

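No called gene changed direction under any alternative run. The count of the 30 genes lower in MK medium with siNC was 15 and spanned 11 to 23 with 1 library or all of replicate 3 left out, with 11 without Ctl_siNC replicate 1, Ctl_siNC replicate 2 or MK_siNC replicate 3 and 23 without replicate 3. With siRHOB it was 14 and spanned 10 to 21. RLE scaling, no filter, DESeq2 and the 3 limma fits gave 13 to 15 lower with siNC and 10 to 14 with siRHOB. FASN lost its siRHOB call under RLE scaling, no filter and all 3 limma fits, and its siNC call with no filter and in the unfiltered limma fit. FADS2 lost its siNC call in all 3 limma fits, and CYP51A1, MVK and FADS2 lost their siRHOB calls in the unfiltered one. STARD4 lost its siRHOB call with no filter, and passed with siNC in DESeq2 and all 3 limma fits. With the replicate block the paired fit gave 19 lower and 4 higher with siNC and 16 lower and 5 higher with siRHOB, and changed no call other than those given above. Between siRNA arms 0 of the 30 passed under every alternative, and 1 gene outside the 30 passed in growth medium without replicate 3. The replicate 3 counts, recomputed with RLE scaling and with no filter, were 25 lower in growth medium under both, 18 and 17 lower in MK medium, and 13 higher for the difference between media under both; they were not recomputed with a library left out. The fewest reads of any of the 30 genes in a library were 196, for PMVK in MK_siRHOB replicate 3, at 5.50 CPM.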
